A study of Mus musculus with 7 samples.

Results

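The genes that make, sense, take up, esterify and export cholesterol were examined in RNA sequencing of whole duodenum from mice with and without Ppara in the intestinal epithelium. They were chosen by symbol from a list of 29 genes covering the mevalonate pathway, the sterol pathway, the control of both by SREBP2, and sterol uptake and export. Of these, 28 stood under their listed symbol in the table of 14795 genes, and Msmo1 was found under its older symbol Sc4mol, which RefSeq gives as a synonym. Sc4mol is given with its values but stays outside the counts.

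There were 3 Ppara lox/lox libraries and 4 Ppara I-KO libraries, one per biological replicate. The lox/lox mice carry the floxed Ppara alleles without a recombinase, and the I-KO mice carry the same alleles together with Villin-Cre, a transgene active in the intestinal epithelium, so that muscle, stromal and immune cells of the duodenal wall keep the intact gene. All mice were of the C57BL/6 strain, and by the study's methods they were males on a high-fat diet (HFD). Food was withdrawn at 12:00 and given back at 18:00, and tissue was taken at 00:00, after 6 h of fasting and 6 h of refeeding, as the labels give it. The study's general methods describe a fast of another length before sacrifice, unless specified otherwise. They do not describe this refeeding, so the feeding state behind these values rests on the labels alone. The age of these mice is not given in the sources used here.

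Cholesterol is built from acetyl-CoA through mevalonate and squalene in the endoplasmic reticulum. When sterol in that membrane is low, SCAP escorts SREBP2 to the Golgi, where it is cleaved to an active transcription factor that raises the synthesis genes, and when sterol is high, the INSIG proteins hold the complex back. The small intestine absorbs cholesterol from the lumen through NPC1L1, esterifies it with SOAT2 for chylomicrons, and pumps sterols out through ABCG5 with ABCG8 into the lumen and through ABCA1 into the circulation. LXR, a receptor for oxysterols, raises the export genes. PPARA is a receptor for fatty acids that raises genes of fatty acid oxidation.

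Ppara itself was measured at 53.42, 49.29 and 63.18 CPM (read counts normalised to library size by the authors) in lox/lox 1 to 3, and at 33.05, 40.58, 47.51 and 69.90 CPM in I-KO 1 to 4. The library labelled I-KO 4 thus held the highest Ppara value of the 7. The value covers the whole gene, and the deleted part cannot be told apart from the rest. Cpt1a, the carnitine palmitoyltransferase of fatty acid oxidation and a known PPARA target, was at 96.37, 103.64 and 121.52 CPM in lox/lox against 57.67, 63.13, 63.98 and 72.84 CPM in I-KO, with no overlap. Cyp4a10, a fatty acid hydroxylase, was at 1.78 to 4.87 CPM in lox/lox and 0.21 to 0.58 CPM in I-KO. I-KO 4 was below all lox/lox libraries for both targets. Neither passed the limma test over all genes, with adjusted p = 0.13 for Cpt1a and 0.12 for Cyp4a10. Genes above 1 CPM in at least 3 libraries were tested. Cyp4a10 met this through the lox/lox libraries alone, where it is high, so its p-value is not separate support.

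Enterocyte markers were high in every library, their 10 genes summing to between 37819 and 50295 CPM. Genes of pancreatic acinar cells (13 of 15 listed genes found) summed to 422.82 CPM in I-KO 1 and 94.51 CPM in lox/lox 2, and to between 25.62 and 40.94 CPM in the other 5 libraries, where several of them, such as Cela3b and Try4, were at or near 0. Sequencing depth was estimated from the smallest steps in the values at 20745155 to 25865823 reads per library, and the fewest reads of a member in any library at 324. These are estimates, since the deposited values are normalised and rounded to 2 decimals.

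Across the 28 genes no difference between the genotypes passed the test. By limma on log2(CPM + 1), with Benjamini-Hochberg adjustment over 13399 genes, 0 of 28 were called at an adjusted p under 0.05, where 0.0299% of all genes were. At an unadjusted p under 0.05 there were also 0 of 28, against 4.74% of all genes tested. In none of the 28 did the values of the 2 groups fail to overlap, which they did in 6.19% of all genes. The log2 fold change was below 0 for 15 of the 28 (53.6%) and for 49.4% of all genes. Its median over the 28 was -0.0051, beside 0.0017 over all genes, and it ran from -0.19 for Lpcat3 to 0.32 for Npc1l1. As the tissue is a mixture, fewer cells of a type and less RNA per cell cannot be told apart in any of these values.

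The precision of these differences was uneven. The unadjusted 95% confidence interval of the log2 fold change lay inside -0.5 to 0.5 for 18 of the 28 genes and inside -1 to 1 for 27, the exception being Abca1. A change as large as that of Cpt1a (log2 fold change -0.72) therefore lay outside the intervals of most of these genes. Differences of the size seen for Npc1l1, up or down, lay inside the intervals of most of them and could not be resolved there.

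**Figure D1:**
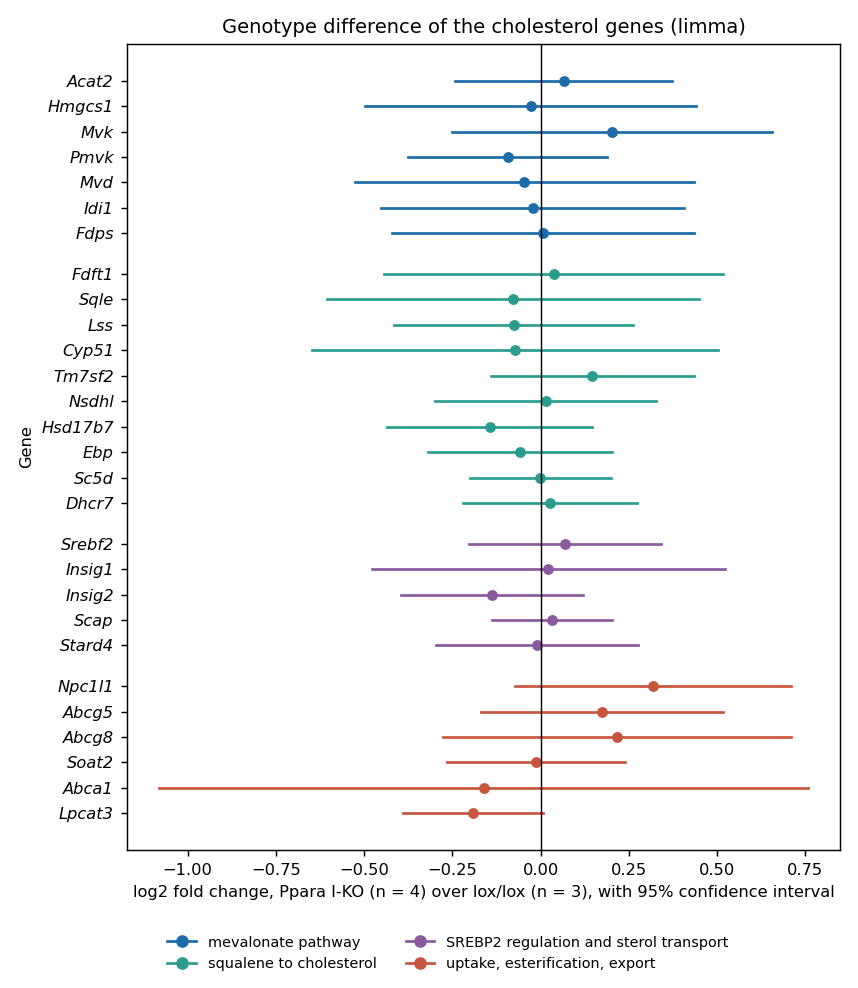
Log2 fold change of each gene, Ppara I-KO over Ppara lox/lox (horizontal axis, from limma on log2(CPM + 1); points are estimates and lines their unadjusted 95% confidence intervals, n = 3 lox/lox and 4 I-KO libraries), with genes on the vertical axis coloured by role. Every interval crosses 0, Npc1l1 lies farthest to the right at 0.32, and Abca1 has the widest interval.

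Levels of different genes were compared per length, as CPM per kb of merged exons. The 4 highest genes were all of uptake, esterification or export. Npc1l1, the luminal sterol transporter, had 301 CPM per kb, followed by Abcg5 with 90.4, Soat2 with 89.8 and Lpcat3 with 80.3 CPM per kb. Insig1 (48.9) and Hmgcs1 (36.3 CPM per kb) came next among the regulatory and synthesis genes, with Abcg8 at 48.1 CPM per kb. The lowest were Abca1 with 2.45 and Lss with 2.44 CPM per kb. Merged exons join those of every annotated transcript, so the scale can understate a gene whose main transcript is shorter. For Lss they came to 10787 bases. The libraries of Npc1l1 did not overlap with those of any other gene on this scale, while Abcg5, Soat2 and Lpcat3 overlapped each other.

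**Figure D2:**
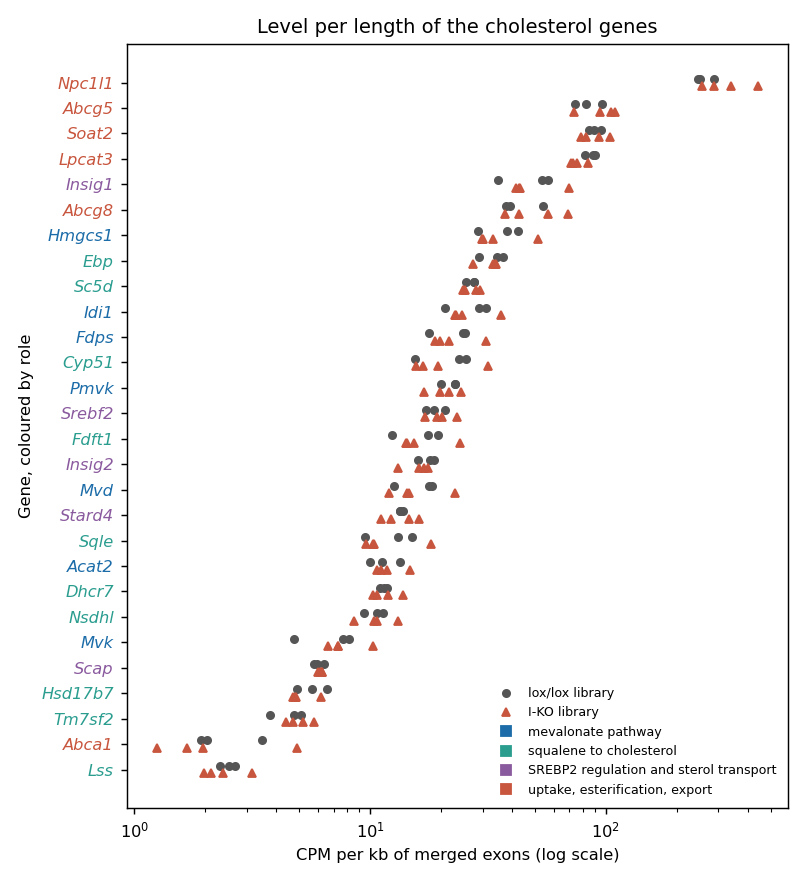
CPM per kb of merged exons (horizontal axis, log scale) for each gene (vertical axis, ordered by mean, names coloured by role), with 1 point per library, circles for the 3 Ppara lox/lox and triangles for the 4 Ppara I-KO libraries. Npc1l1 is highest at a mean of 301 and Lss lowest at 2.44, and circles and triangles overlap in every row.

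The mevalonate pathway was represented by Acat2, Hmgcs1, Mvk, Pmvk, Mvd, Idi1 and Fdps, which carry acetyl-CoA to farnesyl diphosphate. The fold change was above 0 for 3 and below 0 for 4, with a median of -0.022 on the log2 scale, and 0 of the 7 passed either threshold. Hmgcs1, the cytosolic HMG-CoA synthase, was at 174.76, 194.23 and 132.17 CPM in lox/lox 1 to 3 and at 136.31, 237.23, 138.14 and 152.91 CPM in I-KO 1 to 4. I-KO 2 lay above all lox/lox libraries and the other three I-KO libraries between lox/lox 3 and lox/lox 1. The log2 fold change was -0.03 ± 0.21 (SE; adjusted p = 0.996, limma).

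Mvk, mevalonate kinase, was at 20.44, 21.83 and 12.73 CPM in lox/lox against 17.63, 27.42, 19.44 and 19.51 CPM in I-KO. Its lowest value was in lox/lox 3 and its highest in I-KO 2, and the other libraries lay close together. It had the largest fold change of the pathway (log2 fold change 0.20 ± 0.20 SE, 95% confidence interval -0.25 to 0.65, limma adjusted p = 0.95, exact two-sided permutation p = 0.57). Pmvk, phosphomevalonate kinase, was at 39.05, 39.16 and 34.30 CPM in lox/lox against 36.83, 41.72, 33.74 and 28.98 CPM in I-KO, with I-KO 2 above and I-KO 3 and 4 below all lox/lox libraries (log2 fold change -0.09 ± 0.12 SE, limma adjusted p = 0.97, exact permutation p = 0.63). The means of the other members differed between genotypes by less than their SD. Acat2 (the cytosolic thiolase) was at 29.3 ± 4.3 CPM in lox/lox against 30.7 ± 4.7 CPM in I-KO, Mvd (mevalonate diphosphate decarboxylase) at 30.2 ± 6.0 and 29.7 ± 8.8 CPM, Idi1 (isopentenyl diphosphate isomerase) at 94.4 ± 19.1 and 93.3 ± 22.0 CPM, and Fdps (farnesyl diphosphate synthase) at 94.8 ± 17.2 and 96.1 ± 23.8 CPM (mean ± SD, n = 3 and 4).

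Because these genes varied together among libraries, as described further on, the promoters of Hmgcs1, Mvk and Mvd are shown. Each is the 200 bases before the RefSeq transcription start (GRCm38.p6, written 5′ to 3′ on the gene's strand), and all 3 stretches end before the first exon in both RefSeq and GENCODE. Capitals mark matches to the core of a sterol regulatory element (TCACNCCAC, either strand), the site of SREBP, and to the CCAAT box (either strand, so CCAAT or ATTGG), the site of NF-Y. The Hmgcs1 stretch is chr13:119690151-119690350 on the plus strand, that of Mvk chr5:114444069-114444268 on the plus strand, and that of Mvd chr8:122443423-122443622 on the minus strand.
Hmgcs1: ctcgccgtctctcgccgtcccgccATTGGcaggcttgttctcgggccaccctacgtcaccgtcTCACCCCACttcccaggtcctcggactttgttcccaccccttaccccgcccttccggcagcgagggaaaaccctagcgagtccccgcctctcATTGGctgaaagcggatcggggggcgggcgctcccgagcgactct
Mvk: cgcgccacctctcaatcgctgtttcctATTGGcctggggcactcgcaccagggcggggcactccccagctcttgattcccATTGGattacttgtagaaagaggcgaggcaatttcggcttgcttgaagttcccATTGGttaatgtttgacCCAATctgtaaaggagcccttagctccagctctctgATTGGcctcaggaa
Mvd: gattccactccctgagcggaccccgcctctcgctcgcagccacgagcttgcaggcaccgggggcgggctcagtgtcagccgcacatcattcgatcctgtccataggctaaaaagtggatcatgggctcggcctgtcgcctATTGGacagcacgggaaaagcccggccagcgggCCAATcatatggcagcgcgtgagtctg

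The Hmgcs1 stretch holds the sterol core at position -137 from the start, between CCAAT boxes at -176 and -45. The Mvk stretch holds 5 CCAAT boxes and the Mvd stretch 2, and neither holds the sterol core in these letters. In RefSeq windows from 250 bases before to 50 bases after the start, which were at hand for 24 of the 29 genes, the sterol core was in 1 of 24 (Hmgcs1) and in 1.44% of 27025 genes, and the CCAAT box in 21 of 24 and in 41.1% of all genes. Direct repeats of AGGNCA spaced by 1 base, the element of PPARA with RXR, were in 0 of 24 windows and 0.451% of genes. Direct repeats of GGTCA spaced by 4 bases were in 0 of 24 windows and 0.0518% of genes. In the element of LXR with RXR the half-site is AGGTCA, so its GGTCA parts lie 1 base farther apart, and that element was not searched. These matches describe letters and not binding.

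From squalene to cholesterol, 10 genes stood under their listed symbol. The fold change was above 0 for 4 and below 0 for 6 of them, with a median of -0.030 on the log2 scale, and 0 of 10 passed either threshold. Tm7sf2, a sterol C14 reductase, was at 22.31, 20.93 and 16.58 CPM in lox/lox against 22.89, 25.42, 20.76 and 19.43 CPM in I-KO, so that I-KO 1 and 2 lay above all lox/lox libraries (log2 fold change 0.15 ± 0.13 SE, 95% confidence interval -0.14 to 0.43, limma adjusted p = 0.95, exact permutation p = 0.37). Hsd17b7, the sterol 3-keto reductase, was at 33.37, 28.83 and 24.95 CPM in lox/lox against 24.62, 31.47, 24.10 and 24.47 CPM in I-KO. For this gene 3 of the 4 I-KO libraries lay just below the lowest lox/lox library (log2 fold change -0.14 ± 0.13 SE, 95% confidence interval -0.44 to 0.15, limma adjusted p = 0.95, exact permutation p = 0.29).

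The other enzymes of this branch overlapped widely between genotypes. Fdft1, squalene synthase, ranged from 52.18 to 82.19 CPM in lox/lox and from 59.90 to 101.62 CPM in I-KO. Sqle, squalene epoxidase, ranged from 52.80 to 83.69 CPM and from 53.45 to 100.48 CPM, and Cyp51, the lanosterol demethylase, from 68.28 to 113.00 CPM and from 69.36 to 139.22 CPM. In each of these 3 genes I-KO 2 was the highest and lox/lox 3 the lowest library. Sc4mol, the C4-methyl sterol oxidase, showed the same order at its ends, from 62.55 to 105.65 CPM in lox/lox and from 72.32 to 124.21 CPM in I-KO. Lss (lanosterol synthase) at 27.0 and 25.9 CPM, Nsdhl (a C4 decarboxylase) at 29.9 and 30.5 CPM, Ebp (the sterol isomerase) at 77.1 and 74.0 CPM, Sc5d (the C5 desaturase) at 130.6 and 130.8 CPM and Dhcr7 (the last reductase of one branch) at 66.3 and 67.9 CPM had close group means in lox/lox and I-KO.

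Some of these genes share exons with neighbours in GENCODE, where read assignment may be uncertain. On the same strand, 26.7% of the exon bases of Fdps also belong to Gm43738 and 12.1% of those of Tm7sf2 to Vps51. On the opposite strand, 18.3% of the exon bases of Fdft1 overlap Ctsb, and lesser shares apply to Scap, Hmgcs1, Lpcat3, Idi1, Cyp51, Lss, Abcg5 and Abcg8. The libraries were stranded, and the strand setting of the counting is not given in the sources used here.

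Of the 5 genes of SREBP2 regulation and intracellular sterol transport, the fold change was above 0 for 3 and below 0 for 2 (median 0.021 on the log2 scale). Srebf2, which encodes SREBP2, was at 134.18, 149.66 and 123.84 CPM in lox/lox against 137.51, 168.13, 122.14 and 145.13 CPM in I-KO. I-KO 2 lay above and I-KO 3 just below all lox/lox libraries (log2 fold change 0.07 ± 0.12 SE, limma adjusted p = 0.97, exact permutation p = 0.63). Insig2, the second INSIG gene, was at 55.59, 62.16 and 64.47 CPM in lox/lox against 55.99, 58.45, 61.23 and 45.68 CPM in I-KO, where only I-KO 4 lay below all lox/lox libraries (log2 fold change -0.14 ± 0.11 SE, limma adjusted p = 0.95, exact permutation p = 0.31).

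Insig1, the INSIG gene that is itself an SREBP target, was at 165.68, 175.62 and 108.08 CPM in lox/lox against 128.45, 215.66, 134.06 and 131.74 CPM in I-KO. Its order of libraries was close to that of Hmgcs1, with I-KO 2 highest and lox/lox 3 lowest (log2 fold change 0.02 ± 0.22 SE, limma adjusted p = 0.997). Scap, the SREBP escort, was the steadiest gene of the set, from 42.94 to 47.42 CPM over all 7 libraries. Stard4, a soluble sterol carrier, was at 75.3 ± 1.1 CPM in lox/lox against 75.6 ± 12.5 CPM in I-KO.

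Among the 6 genes of uptake, esterification and export, the fold change was above 0 for Npc1l1, Abcg5 and Abcg8 and below 0 for Soat2, Abca1 and Lpcat3 (median 0.080 on the log2 scale), and 0 of 6 passed either threshold. Npc1l1 was at 1280.91, 1116.63 and 1098.00 CPM in lox/lox against 1515.97, 1286.92, 1978.65 and 1142.72 CPM in I-KO. I-KO 1, 2 and 3 lay above all lox/lox libraries, and I-KO 4 among them. The log2 fold change was 0.32 ± 0.17 (SE, 95% confidence interval -0.07 to 0.71, limma unadjusted p = 0.099, adjusted p = 0.95, exact permutation p = 0.20), or a ratio of means of 1.27. Without I-KO 4 it was 0.43 (limma adjusted p = 0.70), and without I-KO 3 it was 0.17.

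Abcg5 and Abcg8 encode the partner subunits of 1 sterol pump and lie head to head, their RefSeq starts 110 bases apart. The stretch between these starts is shown because the 2 genes are read outward from it. It holds no exon in GENCODE, although GENCODE also has Abcg8 begin farther upstream. It is chr17:84683012-84683120 (GRCm38.p6, plus strand, the strand of Abcg8). It is in lower case throughout, since none of the motifs named above occurs in it.
Abcg5 to Abcg8: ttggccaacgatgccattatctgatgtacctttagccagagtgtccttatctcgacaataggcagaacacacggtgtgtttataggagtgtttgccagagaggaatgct

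Abcg5 was at 222.16, 200.41 and 259.86 CPM in lox/lox against 254.94, 197.90, 295.03 and 285.23 CPM in I-KO (log2 fold change 0.17 ± 0.15 SE, limma adjusted p = 0.95, exact permutation p = 0.34). Abcg8 was at 140.75, 146.32 and 203.63 CPM in lox/lox against 160.50, 139.49, 212.51 and 259.60 CPM in I-KO (log2 fold change 0.22 ± 0.22 SE, 95% confidence interval -0.28 to 0.71, limma adjusted p = 0.95, exact permutation p = 0.46). For both genes I-KO 3 and 4 lay above and I-KO 2 below all lox/lox libraries. The ratio of Abcg5 to Abcg8 ranged from 1.28 to 1.58 in lox/lox, reached 1.59 in I-KO 1 and was lowest in I-KO 4.

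Abca1, the exporter of the basolateral face, varied most of the 28 genes, by 3.94 times between its highest and lowest library. It was at 21.13, 19.78 and 35.87 CPM in lox/lox against 17.24, 12.88, 20.23 and 50.76 CPM in I-KO. I-KO 4 held the highest value and I-KO 1 and 2 the lowest, on both sides of the lox/lox range (log2 fold change -0.16 ± 0.41 SE, 95% confidence interval -1.08 to 0.76, limma adjusted p = 0.98, exact permutation p = 0.97). Without I-KO 4 the log2 fold change was -0.55 (limma adjusted p = 0.72), and without lox/lox 3 it was 0.10. Macrophages also express Abca1, and all 8 macrophage markers listed were detected in every library, summing to between 304.79 and 424.08 CPM in lox/lox and between 388.24 and 487.99 CPM in I-KO, with 399.32 CPM in I-KO 4. Their part in the Abca1 values was not tested.

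Lpcat3, a lysophospholipid acyltransferase and LXR target that shapes membranes for lipid absorption, came nearest to the threshold. It was at 293.20, 266.13 and 287.55 CPM in lox/lox against 237.56, 246.38, 273.47 and 232.07 CPM in I-KO, with I-KO 1, 2 and 4 below all lox/lox libraries. The log2 fold change was -0.19 ± 0.088 (SE, 95% confidence interval -0.39 to 0.0077, limma unadjusted p = 0.058, adjusted p = 0.95, exact permutation p = 0.086), or a ratio of means of 0.88. Soat2, which esterifies absorbed cholesterol, was at 199.1 ± 11.7 CPM in lox/lox against 198.3 ± 25.6 CPM in I-KO.

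The larger differences lay among libraries and not between genotypes. The 17 synthesis genes under their listed symbol summed to 1170, 1190 and 898 CPM in lox/lox 1 to 3 and to 973, 1413, 984 and 953 CPM in I-KO 1 to 4. I-KO 2 was the highest library for 15 of the 17 genes and lox/lox 1 for the other two. I-KO 2 lay above the 7-library mean of log2(CPM + 1) for all 17, and lox/lox 3 lay above it for 0 of 17 and was the lowest library for 9. The median within-group SD of the 28 genes on the log2 scale was 0.22, beside 0.13 for the 9057 tested genes with a mean of at least 10 CPM, and ran from 0.049 for Scap to 0.70 for Abca1.

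**Figure D3:**
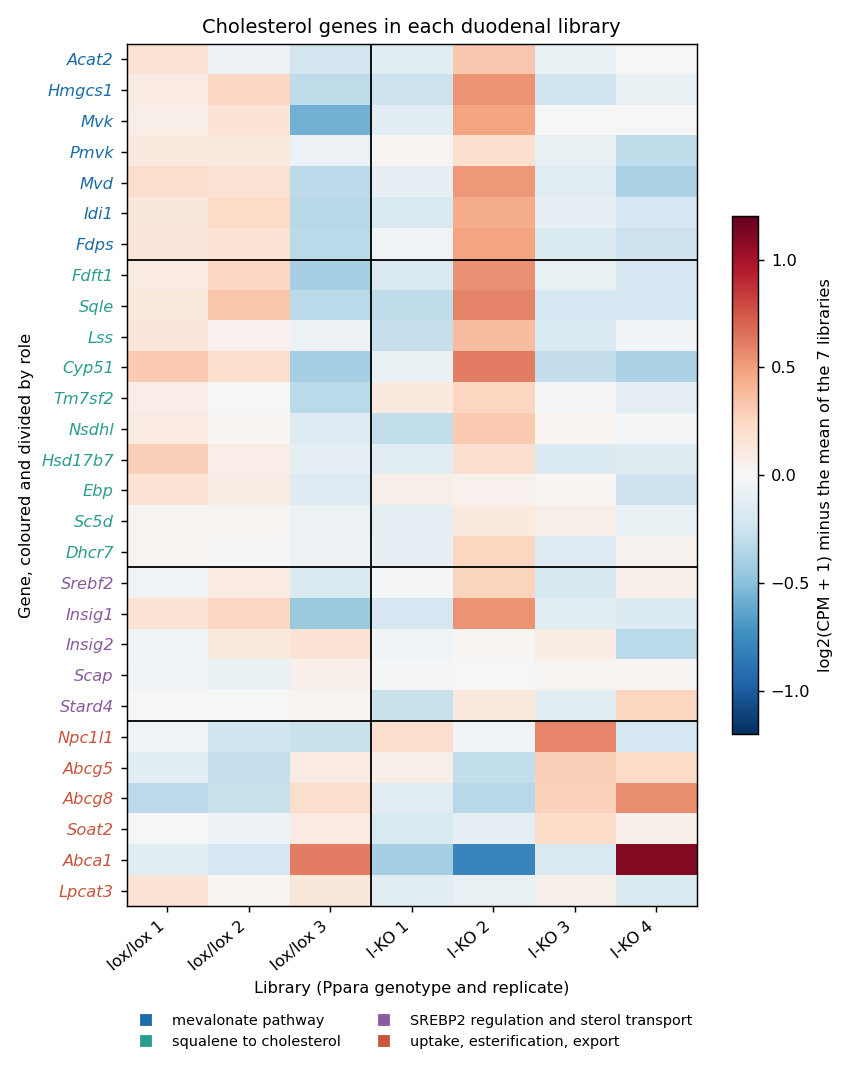
Deviation of each gene (rows, grouped by role) from its own mean over the 7 libraries (columns, 3 Ppara lox/lox then 4 Ppara I-KO), as a colour on the scale of log2(CPM + 1), red above and blue below the mean. The I-KO 2 column is red and the lox/lox 3 column blue down the synthesis genes, while for Abcg5, Abcg8 and Abca1 the colours are the other way round.

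The direction of the synthesis genes between genotypes changed with the libraries left in. Of the 17 genes, 10 were lower in I-KO with all libraries, 15 without I-KO 2 and 16 without lox/lox 3. The number was 4 without lox/lox 1, 4 without lox/lox 2, 5 without I-KO 1, 7 without I-KO 3 and 5 without I-KO 4. With I-KO 1 and lox/lox 2, the libraries with pancreatic acinar genes, both left out, 3 of the 17 were lower. In none of these fits was any of the 28 genes called by limma at an adjusted p under 0.05.

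Hmgcs1 was used as the reference for co-variation across the 7 libraries, in 30 relations on log2(CPM + 1) with exact permutation tests adjusted together by the Benjamini-Hochberg method. These genes share library and depth, and all values are normalised within a library. Sqle followed Hmgcs1 most closely, with Pearson's r = 0.99 (exact permutation p = 0.000397, adjusted p = 0.006) and Spearman's rho = 0.96 (exact permutation p = 0.0028, adjusted p = 0.021). Without I-KO 2 and lox/lox 2, the libraries farthest from the median of Hmgcs1, r was 0.94 over 5 libraries, and with the group means removed it was 0.99. For Insig1 r was 0.97 (exact permutation p = 0.000595, adjusted p = 0.006), rho 0.96 (exact permutation p = 0.0028, adjusted p = 0.021) and r without the same libraries 0.89. Of the 16 relations with other synthesis genes, 12 had an adjusted exact permutation p under 0.05 for r and 5 for rho. Their median r was 0.86, and 0.73 without I-KO 2 and lox/lox 2. An r above 0.8 was found for 12 of the 16, beside 1.70% of the 13398 other genes tested, and without those libraries for 5 of the 16, beside 2.21%.

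Of the export genes, Abcg5 passed in the opposite direction and by r alone. It fell as Hmgcs1 rose, with r = -0.86 (exact permutation p = 0.015, adjusted p = 0.029), rho = -0.71 (exact permutation p = 0.088, adjusted p = 0.16) and r = -0.58 without I-KO 2 and lox/lox 2. The rank correlation did not pass, and much of r rested on those libraries. Abcg8 and Abca1 did not pass by either measure. For Abcg8 r was -0.65 (exact permutation p = 0.12, adjusted p = 0.16), rho -0.64 (exact permutation p = 0.14, adjusted p = 0.21) and r without the same libraries -0.37. For Abca1 r was -0.53 (exact permutation p = 0.22, adjusted p = 0.29), rho -0.43 (exact permutation p = 0.35, adjusted p = 0.42) and r without the same libraries 0.017, so that its r rested on them. For Npc1l1 r was -0.31 (exact permutation p = 0.51, adjusted p = 0.55) and rho 0.036 (exact permutation p = 0.96, adjusted p = 0.96).

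**Figure D4:**
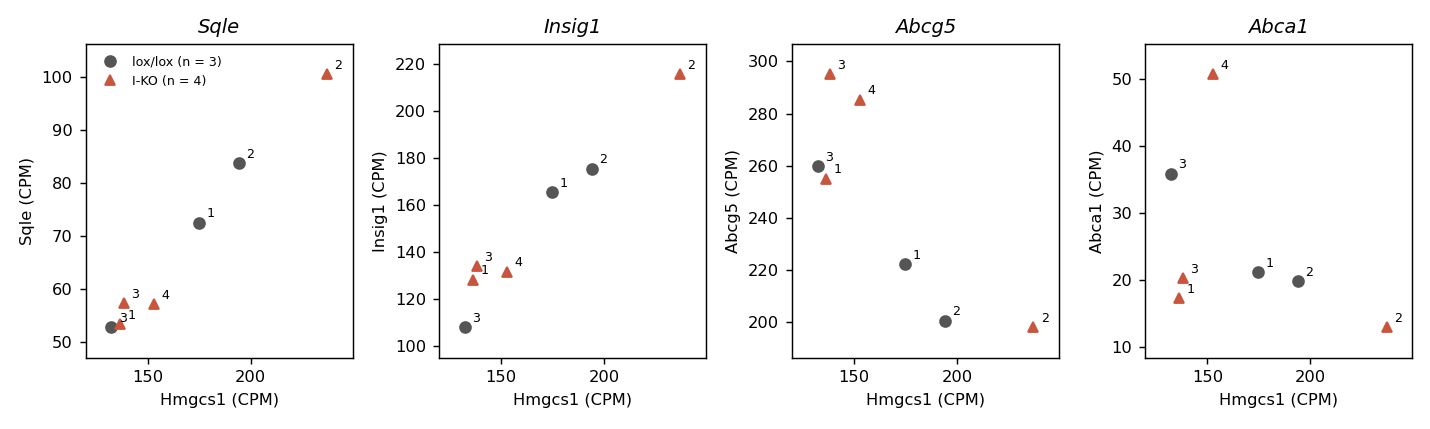
CPM of Sqle, Insig1, Abcg5 and Abca1 (vertical axes) against CPM of Hmgcs1 (horizontal axes), 1 point per library, grey circles for Ppara lox/lox 1 to 3 and red triangles for Ppara I-KO 1 to 4, each with its replicate number. Sqle and Insig1 climb with Hmgcs1 to I-KO 2 at 237.23 CPM of Hmgcs1, and Abcg5 is lowest there at 197.90 CPM.

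Over all 13399 genes, likeness to the synthesis genes was measured as r with the mean deviation of the 17 across 7 libraries. Each of the 17 was left out of the mean for its own r. This is a description without a test, since the genes that form the mean are among those ranked. Insig1, which is not part of the mean, ranked first with r = 0.99, and Sc4mol, also outside it, ranked 4 with r = 0.98. An r above 0.8 was found for 12 of the 17 genes in the mean and for 1.49% of all genes. At the other end Abcg5 had r = -0.85, Abcg8 -0.77 and Abca1 -0.70, below the 5th percentile of all genes (-0.68), whereas Insig2 (0.10), Stard4 (0.21), Npc1l1 (-0.10) and Lpcat3 (-0.02) were near the median.

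Further genes of sterol handling were split evenly. Of 26 such genes, all tested, 13 had a fold change above and 13 below 0 (median 0.0056 on the log2 scale), 1 in each direction had an unadjusted p under 0.05, and 0 were called. Gramd1b, a carrier of plasma membrane cholesterol, was at 55.19, 47.44 and 57.05 CPM in lox/lox against 58.34, 63.95, 72.83 and 60.48 CPM in I-KO, without overlap (log2 fold change 0.26 ± 0.11 SE, limma unadjusted p = 0.037, adjusted p = 0.95). Cyp27a1, the sterol 27-hydroxylase, was at 56.3 ± 7.4 CPM in lox/lox against 71.9 ± 13.6 CPM in I-KO.

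The targets of LXR, of which Abca1, Abcg5, Abcg8 and Lpcat3 are also members here, numbered 11, all tested, with 5 above and 6 below 0, a median of -0.046 on the log2 scale and 0 called. Of 8 targets of SREBP1, the factor that drives fatty acid synthesis, 3 were above and 5 below 0 with a median of -0.065 and 0 called. Scd2, a stearoyl-CoA desaturase on both lists, had the only unadjusted p under 0.05 in each. It was at 138.63, 157.39 and 141.13 CPM in lox/lox against 98.33, 141.06, 116.95 and 101.23 CPM in I-KO, with I-KO 2 inside the lox/lox range (log2 fold change -0.36 ± 0.13 SE, limma unadjusted p = 0.023, adjusted p = 0.95). By contrast, of the 10 tested genes of the Ppara check list, which holds Ppara and known PPARA targets, 9 were lower in I-KO and 7 had an unadjusted p under 0.05, with a median of -0.72 on the log2 scale and 0 called. Cyp4a10, which entered the test through its lox/lox values alone, is among them.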

How the data were processed

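Whole duodenal RNA was extracted with TRIzol, made into stranded mRNA libraries (TruSeq) and sequenced as 100 base single reads. Per the submitters' processing notes, FastQC 0.11.2, TopHat2 2.0.13, Picard 1.80, HTSeq 0.6.1 and edgeR were used with build mm10. The authors deposited 1 table of normalised signal values, read counts scaled to library size (CPM) to 2 decimals, with 1 column per library, and 1 line without a gene name was left out. In 5 of 7 libraries fewer than 95% of low values lay within 0.1 of a step, but there the rounding to 2 decimals alone can exceed 0.1 of a step. Within that rounding, 95.3% of low values in I-KO 2 and 100% in the other libraries were whole multiples of the step. No count model was run, as the deposited values are normalised and rounded.

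Genes above 1 CPM in at least 3 libraries (13399; 1396 fell below) were tested with limma 3.58.1 (R 4.3.3) on log2(CPM + 1) with genotype as the only term, two-sided, adjusted by the Benjamini-Hochberg method. Fold changes are I-KO minus lox/lox on that scale, which understates changes of low genes. Single genes also had exact permutation tests over the 35 arrangements of the group labels, with 0.029 the smallest p possible. p-values of the correlations with Hmgcs1 were added to a plan that held them as descriptions. The limma step was tested on simulated data.

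The members and lists were chosen with earlier results of these data known. Full values are given for members with an unadjusted p under 0.05 or groups without overlap (there were none) and the 2 of each role with the largest fold change. Of the other lists those with an unadjusted p under 0.05 and at most 3 more are named. Hmgcs1, Insig1, Abcg5, Abca1 and Lpcat3 were given in full after their values were seen. Some genes of the other lists are not reported here. Libraries labelled as biological replicates were taken as separate mice. No pair of one group agreed within sampling noise (chi-square over its degrees of freedom was 13.5 or more). Lengths and exon overlaps are from GENCODE and promoters from RefSeq (GRCm38.p6), both of the mm10 assembly.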

Additional observations from a re-analysis of the deposited data

Results flagged for a closer look

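In groups of 4 libraries, 39 quantities were searched for a library that stood apart from the rest of its group by Dixon's ratio, the gap to the nearest library over the group's range. It was past its 95% limit for 7, where chance alone gives about 1 in 20, or 1.95. The 7 share libraries and move together, so they are not separate observations.

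I-KO 2 stood above the other I-KO libraries for 6 of them. The ratio was 0.836 for Hmgcs1 (237.23 CPM against 136.31 to 152.91), 0.870 for Idi1 (126.10 against 79.95 to 85.97 CPM) and 0.879 for Fdft1 (101.62 against 59.90 to 64.94 CPM). It was 0.917 for Sqle (100.48 against 53.45 to 57.36 CPM), 0.929 for Hsd17b7 (31.47 against 24.10 to 24.62 CPM) and 0.936 for Insig1 (215.66 against 128.45 to 134.06 CPM). Ebp stood apart in the other direction and in another library, with 62.96 CPM in I-KO 4 against 76.33 to 78.64 CPM and a ratio of 0.853. The lox/lox group, with 3 libraries, was not searched.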

How the results depend on the processing

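No alternative called any of the 28 genes at an adjusted p under 0.05, and the smallest adjusted p of a member over all of them was 0.61. The count at an unadjusted p under 0.05, 0 in the report, was 1 (Lpcat3) with columns scaled to equal totals, 1 with an intensity trend and 1 with a trend and robust fit, and 0 to 2 leaving out 1 library (Abcg5 without I-KO 2, Lpcat3 without I-KO 3, Npc1l1 and Abca1 without I-KO 4). The number of members lower in I-KO, 15 in the report, was 21 with columns scaled to equal totals, which moved the median of all genes to -0.032, 8 with sample quality weights, 8 to 20 leaving out 1 library, and 6 without I-KO 1 and lox/lox 2, an alternative chosen after seeing the data. Among the 12 members whose own fold change was followed, those that turned outside the fits that leave out 1 library were those of Insig1 (-0.016 with columns scaled to equal totals) and Hmgcs1 (0.040 with weights, 0.17 without I-KO 1 and lox/lox 2). Leaving out 1 library gave -0.21 to 0.089 for Hmgcs1, -0.028 to 0.34 for Mvk, -0.55 to 0.099 for Abca1, -0.20 to 0.15 for Insig1 and -0.0096 to 0.14 for Srebf2. The causes were not tested. Deviations of same-numbered libraries from their group means had correlations of -0.014, 0.18 and -0.0092, and those of differently numbered libraries ran from -0.35 to 0.28. So few pairs cannot decide whether the numbers pair the libraries, which were taken as unpaired. With the replicate block, where I-KO 4 has no partner, 2 members had an unadjusted p under 0.05 (Npc1l1 and Abca1), 10 were lower, and 3 of all genes were called, beside 4 without it. With weights, Cpt1a and Cyp4a10 passed limma's threshold (adjusted p = 0.049 each), as did Cpt1a in the robust fit (0.048), and 12 and 9 of all genes were called. For Cyp4a10 this is not separate support, since it met the filter through its lox/lox values alone. The fewest reads of a member in any library were estimated at 324. Differences inside the printed intervals could not be resolved, and the cause was not tested.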
